A study of Mus musculus with 4 samples.

Results

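The immediate early genes of the AP-1 group were examined in mouse brown adipose tissue (BAT) with and without a Myf5-Cre-driven deletion of Sox4. The group holds 10 genes, namely Fos, Fosb, Fosl2, Jun, Junb, Jund, Egr1, Egr2, Atf3 and Ier2, out of 55287 different gene symbols on 55387 rows. Every one of the 10 symbols was found on a single row in each library. The genes were chosen by family, together with their levels and genotype differences in these same 4 libraries, so those levels and differences are given as a description and without a p-value.

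Immediate early genes are transcribed within minutes of a stimulus, from transcription factors that are already present in the cell, and their mRNAs are usually short-lived. FOS and JUN proteins pair through leucine zippers to form AP-1, which binds a short palindromic DNA element, and FOS proteins need a JUN partner whereas JUN proteins can pair with each other. In brown fat, cold and noradrenaline act through cyclic AMP and protein kinase A, and the cyclic AMP response element bound by CREB is a known entry point to several of these genes, while growth factors reach them through MAP kinases and the serum response factor.

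RNA sequencing was carried out on BAT of 4 male mice aged 15 weeks on a C57BL/6 background, with 1 library per mouse and controls from the same litters. The 2 controls were Sox4f/f mice, which carry floxed Sox4 alleles, with no Cre named, and which the labels call WT, and the 2 Sox4-MKO mice carried the same floxed alleles and Myf5-Cre. Myf5-Cre acts in precursors shared by brown adipocytes and skeletal muscle, so by design vessels, nerves and immune cells of the depot keep Sox4 and muscle cells do not. The mice were housed at room temperature, and no treatment is named. Nothing in the sources used here gives the hour or the order in which tissues were collected, and mRNAs of this kind are known to respond to handling.

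Promoters of the group are shown first, because they hold the elements through which the stimuli above are known to act. RefSeq entries (GRCm38.p6) were used for 8 of the 10 genes. The 250 nucleotides before the start site were searched on both strands for TGACG (the core of the cyclic AMP response element) and TGANTCA (the AP-1 element). TGANNTCA (the longer AP-1 and CREB element) and the CArG box of serum response factor were also searched on both strands, and TATAAA on the sense strand. TGACG and TGANNTCA overlap only where TGACG is followed by TCA. The windows of 4 genes with a match are printed 5′ to 3′ on the gene's own strand, with the matches in capitals: Fos on the plus strand of chr12:85473640-85473889, Fosb on the minus strand of chr7:19310046-19310295, Jun on the minus strand of chr4:95052223-95052472 and Atf3 on the minus strand of chr1:191183334-191183583.
Fos promoter: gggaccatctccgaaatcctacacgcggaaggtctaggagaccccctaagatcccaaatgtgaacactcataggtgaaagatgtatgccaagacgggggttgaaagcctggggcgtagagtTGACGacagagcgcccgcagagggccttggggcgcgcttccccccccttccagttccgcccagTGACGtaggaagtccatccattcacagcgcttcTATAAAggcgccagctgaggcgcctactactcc
Fosb promoter: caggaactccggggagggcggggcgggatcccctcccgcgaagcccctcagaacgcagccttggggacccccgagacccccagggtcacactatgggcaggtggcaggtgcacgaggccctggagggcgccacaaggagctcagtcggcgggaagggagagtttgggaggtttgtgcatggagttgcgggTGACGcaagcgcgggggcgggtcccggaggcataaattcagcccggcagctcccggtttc
Jun promoter: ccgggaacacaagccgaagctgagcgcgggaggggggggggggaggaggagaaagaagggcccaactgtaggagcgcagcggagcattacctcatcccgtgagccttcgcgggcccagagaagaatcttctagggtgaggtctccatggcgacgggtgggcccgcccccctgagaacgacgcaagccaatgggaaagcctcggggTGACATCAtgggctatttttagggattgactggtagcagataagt
Atf3 promoter: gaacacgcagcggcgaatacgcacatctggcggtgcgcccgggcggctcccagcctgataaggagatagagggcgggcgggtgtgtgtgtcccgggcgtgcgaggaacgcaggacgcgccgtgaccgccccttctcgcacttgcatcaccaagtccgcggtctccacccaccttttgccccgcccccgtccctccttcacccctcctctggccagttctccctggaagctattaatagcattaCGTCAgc

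TGACG was present in at least 1 window of 5 of the 8 genes, namely Fos, Fosb, Junb, Egr2 and Atf3, against 17.8% of 32851 promoter windows of the same length. Egr2 had 5 windows, some of them overlapping, and each other gene a single one. The shares given here are of windows, so they are not a like measure to a count of genes. In Fos, TGACG lay at -129 and again at -66 relative to the start site, with a TATAAA at -33, and in Fosb it lay at -60. Atf3 held it on the opposite strand at -7. Jun held TGACATCA at -45 and Jund TGAAATCA at -61, 2 forms of TGANNTCA, which 11.9% of windows held. Positions count from the RefSeq start site. The Atf3 window lies inside the GENCODE gene given below, whose minus-strand start is 191218039, so -7 does not count from that start. The Jund window (chr8:70697489-70697738, plus strand) ends well upstream of the GENCODE start of Jund given below, 70698949, so -61 does not hold for that gene model. No window of the 8 genes held TGANTCA, which 6.75% of all windows held. Among the 8 genes searched, a CArG box was found in windows of Egr2 alone, against 1.47% of all windows. Ier2 had no matched window and the promoter of Egr1 is not reported here, so no motif can be called absent from either. Sequence outside the windows was not searched, so a CArG box further upstream, in Fos or any other gene, would have been missed. The hits given here are matches of letters in a window and not measured binding.

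The genes are compact. By the GENCODE M21 annotation of GRCm38, matched by symbol, Jun (chromosome 4, 95049034 to 95052222, minus strand), Junb (chromosome 8, 84974484 to 84978718, minus strand), Jund (chromosome 8, 70698949 to 70700616, plus strand) and Ier2 (chromosome 8, 84661331 to 84662852, minus strand) consist of 1 exon in the longest coding transcript, as do 2.01% of 11651 protein-coding genes tested. Fos (chromosome 12, 85473890 to 85477273, plus strand), Fosb (chromosome 7, 19302696 to 19310051, minus strand), Fosl2 (chromosome 5, 32135801 to 32157842, plus strand) and Atf3 (chromosome 1, 191170296 to 191218039, minus strand) have 4 exons. Egr2 (chromosome 10, 67535475 to 67542188, plus strand) has 2 exons. Only Atf3, with a span of 47744 nucleotides, is longer than the median gene tested, which spans 24366 nucleotides.

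The 3′ untranslated regions (3′UTRs) carry the AU-rich element TATTTAT, a sequence bound by proteins that speed mRNA decay, in 6 of the 10 genes. It was counted 2 times in Fos, 3 times in Fosl2 and once each in Fosb, Jun, Jund and Atf3, and it was not found in Junb, Egr1, Egr2 or Ier2. In the last 300 nucleotides it was present in Fos, Jun, Jund and Atf3, against 10.1% of 9214 genes. The first site of each of these 4 3′UTRs is shown with its flanks, from GENCODE M21 transcripts, with the element in capitals. They lie in the last exon, at chr12:85477104-85477130 (plus strand) for Fos, chr4:95049080-95049106 (minus strand) for Jun, chr8:70700360-70700386 (plus strand) for Jund and chr1:191170339-191170365 (minus strand) for Atf3.
Fos 3′UTR site: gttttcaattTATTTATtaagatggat
Jun 3′UTR site: tgcttgtgcaTATTTATaatagcgttc
Jund 3′UTR site: gattccgcccTATTTATgtttctactc
Atf3 3′UTR site: aaatattactTATTTATcccagtattc

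Levels are given as the authors' FPKM, a fragment count corrected for transcript length and library depth, and differences as log2(FPKM + 1) of Sox4-MKO minus Sox4f/f with their standard error (SE) from limma. Depth was estimated at 12100000 to 16200000 fragments per library. Sox4 was not lower in the libraries labelled Sox4-MKO, since the Sox4f/f libraries measured 1.98 and 1.06 FPKM and those labelled Sox4-MKO 0.981 and 3.06 FPKM, so every direction below follows the labels and not the level of the deleted gene. The 12 brown adipocyte markers were above 0 in every library, with summed levels of 15870 and 16100 FPKM in Sox4f/f and 11170 and 14320 FPKM in Sox4-MKO. Fabp4, a gene of all adipocytes, gave 5416 to 7518 FPKM of these sums, whereas Ucp1, the uncoupling protein of brown fat, measured 1935 and 1814 FPKM in Sox4f/f and 733 and 1105 FPKM in Sox4-MKO. Cidea and Cox8b were 1.82-fold and 1.76-fold lower in the mean, and Lep, which encodes leptin and is higher in white fat, was 2.58-fold higher. Of the 12 markers 10 had a negative log2 difference and 2, Fabp4 and Lep, a positive one. Mean levels in Sox4f/f and Sox4-MKO were 6068 and 6467 FPKM for Fabp4, 905 and 917 FPKM for Adipoq and 788 and 709 FPKM for Plin1. Since the list also holds Lep and genes of all adipocytes, its sum does not measure brown identity alone. The 14 skeletal muscle markers summed to 299.9 and 976 FPKM in Sox4f/f and to 17640 and 3851 FPKM in Sox4-MKO, the 12 macrophage markers to 227 and 330.4 against 478 and 461 FPKM, and the 10 fibroblast and progenitor markers to 412 and 439 against 918 and 850 FPKM. In each of these lists no marker was at 0. The part of these cell types in the levels below was not tested, and in whole tissue fewer cells of a type and less RNA per cell cannot be told apart.

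In Sox4-MKO BAT, 8 of the 10 genes had a lower mean FPKM than in Sox4f/f BAT, beside a lower log2 value in 56% of all tested genes. The genotypes did not overlap for Fosb, Jund, Egr1 and Ier2, all lower, or for Fos, which was higher. Genotypes did not overlap for 51.3% of the 12877 genes tested, 29.6% lower and 21.7% higher, from which nothing can be read for 10 genes chosen on these values. Over the 9 genes whose mean level passed 1 FPKM in either genotype, the median log2 difference was -0.37, beside -0.05 over all tested genes. Of these 9 genes 7 were lower, or 5 without Sox4f/f mouse 2. Egr2 did not pass this limit, and Fosb passed it only through Sox4f/f, where it was high. With 2 mice per genotype, an exact two-sided permutation test of a single gene cannot go below a p of 0.333.

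**Figure D1:**
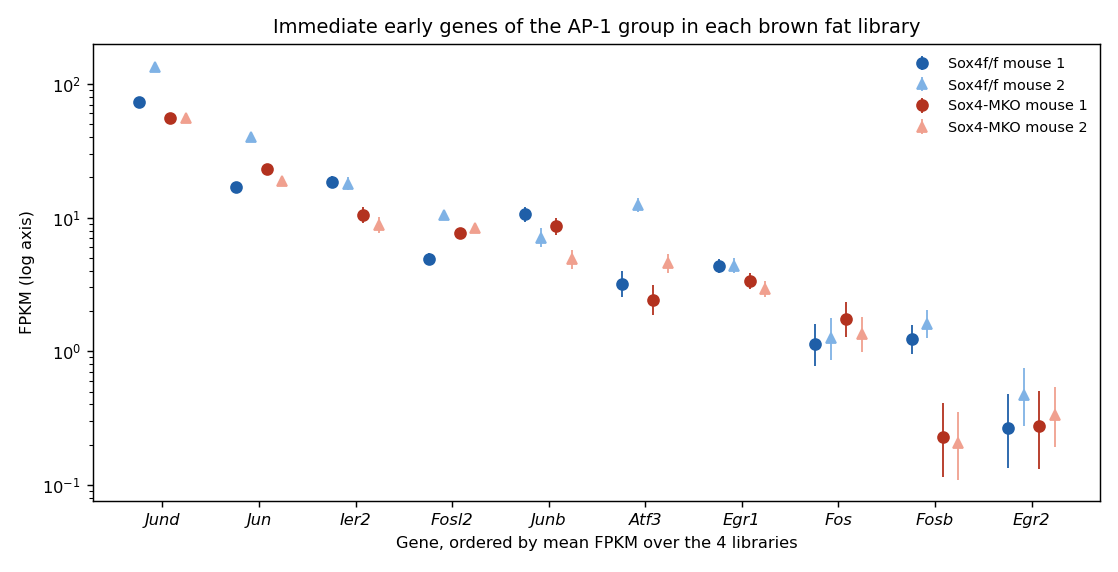
FPKM (log axis) of the 10 genes in each of the 4 BAT libraries, with circles for mouse 1 and triangles for mouse 2 of each genotype and bars for the 95% Poisson interval of the estimated fragments, which covers counting error only. Jund was the most abundant gene in every library, and both Sox4-MKO values of Fosb (0.230 and 0.205 FPKM) lie below both Sox4f/f values (1.23 and 1.61 FPKM).

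Per length, the group spanned from Jund, at 55.7 to 134 FPKM, down to Egr2, at 0.268 to 0.470 FPKM. Ordered by the mean of the 4 libraries, Jund was followed by Jun, Ier2, Fosl2, Junb, Atf3, Egr1, Fos, Fosb and Egr2. Neighbours in this order overlapped over the 4 libraries, except that every value of Jund lay above every value of Jun and every value of Egr1 above every value of Fos.

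Among the FOS proteins, Fosb showed the lowest ratio of the group. Fosb encodes a FOS protein that, in its truncated form, accumulates with repeated stimulation. It measured 1.23 and 1.61 FPKM in Sox4f/f and 0.230 and 0.205 FPKM in Sox4-MKO, a mean of 1.42 ± 0.27 against 0.217 ± 0.018 FPKM (SD, n = 2 mice each) and 6.54-fold lower. The Sox4-MKO libraries both lie below the Sox4f/f libraries, on an estimated 11 and 13 fragments against 63 and 74. The Poisson intervals, which cover counting error only, reached 0.412 FPKM at most in Sox4-MKO and went down to 0.947 FPKM in Sox4f/f. The log2 difference was -0.99 (SE 0.25), and since the offset of 1 FPKM compresses low genes it was -2.25 with an offset of 0.1.

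Fos, the classic partner of JUN in AP-1, was low in every library. It measured 1.13 and 1.25 FPKM in Sox4f/f and 1.74 and 1.34 FPKM in Sox4-MKO, on 32, 32, 46 and 46 estimated fragments. Both Sox4-MKO values were above both Sox4f/f values, with a log2 difference of 0.21 (SE 0.23) that is below its own SE, and the counting intervals of the 4 libraries overlapped.

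Fosl2, which encodes FRA2, a FOS protein without the strong activation domain of FOS, made up most of the FOS family mRNA. It measured 4.92 and 10.5 FPKM in Sox4f/f and 7.63 and 8.36 FPKM in Sox4-MKO, so both Sox4-MKO mice lay between the Sox4f/f mice. The log2 difference of 0.13 (SE 0.35) took the opposite sign, -0.35, without Sox4f/f mouse 1.

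The sum of the 3 FOS genes was 7.29 and 13.3 FPKM in Sox4f/f and 9.60 and 9.91 FPKM in Sox4-MKO, and the genotypes overlapped. The log2 ratio of the means was -0.08, and it was 0.42 without Sox4f/f mouse 2. Within this sum Fosb made up 16.9% and 12.1% in Sox4f/f and 2.40% and 2.07% in Sox4-MKO, whereas Fosl2 made up 67.5% and 78.5% in Sox4f/f and 79.5% and 84.4% in Sox4-MKO.

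Jund held the larger part of the JUN family. JUND is the JUN protein present in resting cells and the least inducible of the family. Its mRNA measured 73.0 and 134 FPKM in Sox4f/f and 55.8 and 55.7 FPKM in Sox4-MKO, a mean of 103 ± 43.0 against 55.8 ± 0.023 FPKM (SD, n = 2 mice each). Sox4-MKO libraries were below both Sox4f/f libraries and close to each other, while the Sox4f/f libraries differed 1.83-fold. The log2 difference was -0.82 (SE 0.30) and ranged from -1.25 without Sox4f/f mouse 1 to -0.38 without Sox4f/f mouse 2.

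Jun, which encodes the founding JUN protein and is known to be induced by AP-1 itself, measured 16.8 and 39.9 FPKM in Sox4f/f and 22.9 and 18.9 FPKM in Sox4-MKO. Only Sox4f/f mouse 2 was high, and the other 3 libraries lay within 16.8 to 22.9 FPKM. The log2 difference of -0.31 (SE 0.42) became 0.29 without that library.

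Junb, whose protein can oppose JUN, measured 10.6 and 7.08 FPKM in Sox4f/f and 8.61 and 4.90 FPKM in Sox4-MKO. Here mouse 1 was above mouse 2 in both genotypes, the genotypes overlapped, and the log2 difference was -0.36 (SE 0.32) and ranged from -0.71 to -0.0095 as each library was left out.

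The JUN genes together summed to 100.4 and 181 FPKM in Sox4f/f and to 87.3 and 79.6 FPKM in Sox4-MKO, with a log2 ratio of the means of -0.75 that was -0.27 without Sox4f/f mouse 2. The FOS share of the summed FOS and JUN mRNA was 6.76% and 6.86% in Sox4f/f and 9.91% and 11.1% in Sox4-MKO. The Jund share was 67.8% and 68.9% in Sox4f/f and 57.5% and 62.3% in Sox4-MKO. In both shares the genotypes did not overlap, as for 51.3% of all tested genes, from which nothing can be read for genes chosen on these values. The FOS and Jund shares are parts of the same sum, so they are not separate observations. The values are a description of mRNA and not of AP-1 dimers.

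**Figure D2:**
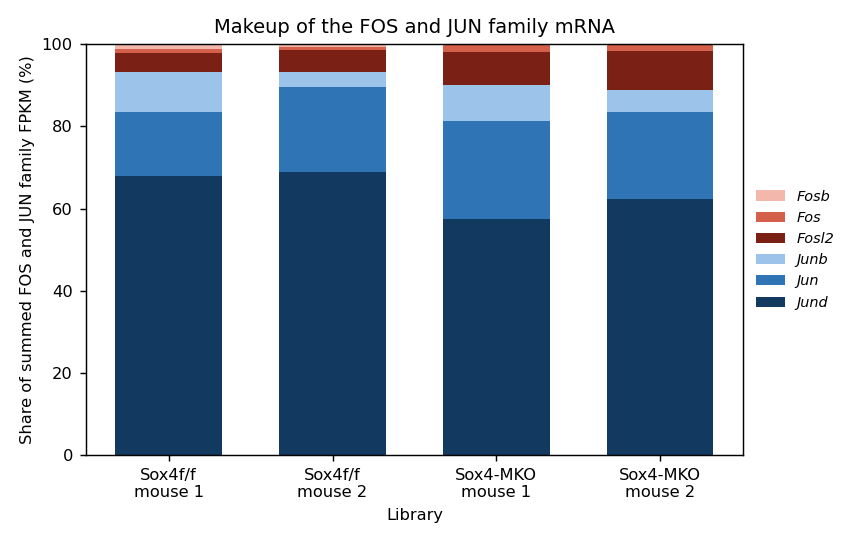
Share (%) of each of the 6 FOS and JUN family genes in their summed FPKM, 1 bar per library, with JUN genes in blue and FOS genes in red. Jund makes up 57.5% to 68.9% of each bar, and Fosb can be seen as a separate band in the Sox4f/f libraries.

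Of the other members, Ier2 had the smallest SE of the group. Ier2 encodes a small nuclear protein that is induced by growth factors. It measured 18.4 and 17.9 FPKM in Sox4f/f and 10.5 and 8.85 FPKM in Sox4-MKO, a mean of 18.2 ± 0.36 against 9.69 ± 1.18 FPKM (SD, n = 2 mice each). The mice of each genotype lay close together, the genotypes did not overlap, and the mean was 1.88-fold lower with a log2 difference of -0.85 (SE 0.15). It lay between -0.96 and -0.74 with any library left out.

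Egr1, a zinc finger factor and a standard marker of MAP kinase signalling, measured 4.35 and 4.36 FPKM in Sox4f/f and 3.36 and 2.93 FPKM in Sox4-MKO. The genotypes did not overlap, with a log2 difference of -0.37 (SE 0.17). Egr2, its relative with a role in early adipocyte differentiation, was the lowest of the group at 0.268 and 0.470 FPKM in Sox4f/f and 0.276 and 0.334 FPKM in Sox4-MKO, or 10 to 17 estimated fragments. Both Sox4-MKO values of Egr2 lay between the Sox4f/f values, and the counting intervals of the 4 libraries overlapped. The EGR sum was 4.62 and 4.83 FPKM in Sox4f/f and 3.64 and 3.27 FPKM in Sox4-MKO, with a log2 ratio of the means of -0.45, and Egr1 made up most of the sum in each library.

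Atf3, a stress-induced factor that mostly represses, varied most between mice. It measured 3.20 and 12.5 FPKM in Sox4f/f and 2.43 and 4.55 FPKM in Sox4-MKO, and mouse 2 was above mouse 1 in both genotypes, 3.89-fold and 1.87-fold. The genotypes overlapped, and the log2 difference of -0.78 (SE 0.62) became 0.057 without Sox4f/f mouse 2.

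**Figure D3:**
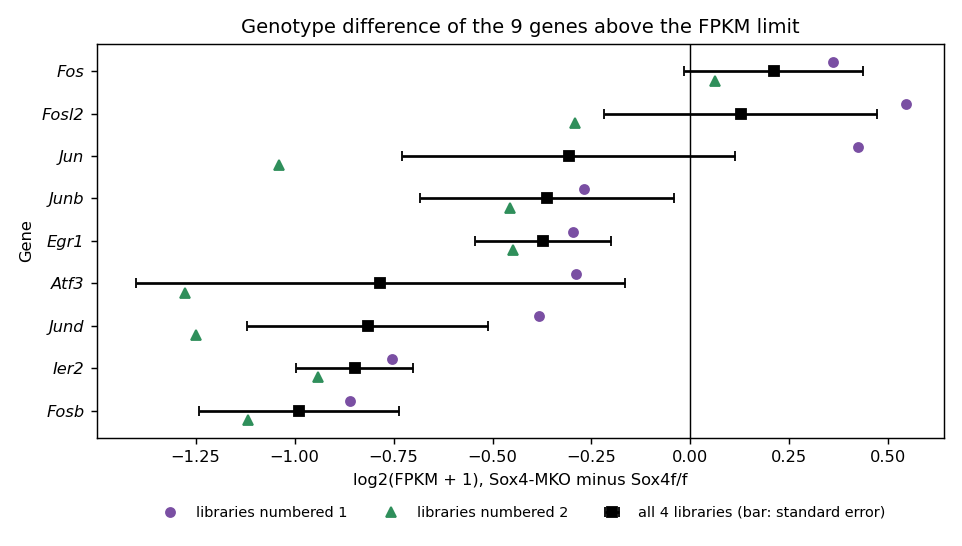
Difference of log2(FPKM + 1), Sox4-MKO minus Sox4f/f, for the 9 genes above the FPKM limit, with squares and standard error bars from all 4 libraries and coloured points for the libraries numbered 1 and 2 taken separately. Fosb, Ier2, Egr1 and Junb are lower by a like amount in both numbered comparisons, whereas Jun and Fosl2 are higher in the first and lower in the second.

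By the libraries numbered 1 and 2 taken separately, 6 genes were lower in Sox4-MKO in both comparisons (Fosb, Junb, Jund, Egr1, Atf3 and Ier2), Fos was higher in both, and Fosl2, Jun and Egr2 went opposite ways.

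The spread of the group between mice was wide in Sox4f/f and near that of all tested genes in Sox4-MKO. Within Sox4f/f, mouse 2 was above mouse 1 for 8 of the 10 genes, by 1.83-fold for Jund, 2.13-fold for Fosl2, 2.37-fold for Jun and 3.89-fold for Atf3, and within Sox4-MKO it was above for 3 of the 10. The median absolute log2 difference between the mice was 0.52 in Sox4f/f and 0.22 in Sox4-MKO for the 9 genes above the limit, beside 0.19 and 0.23 for all tested genes. The genotype difference of the same 9 genes had a median size of 0.37.

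Other lists were followed between the mice, since immediate early genes respond to handling and to the hour of day. Circadian clock genes went the same way from mouse 1 to mouse 2 in both genotypes for 15 of 15 genes, against 50.5% of all tested genes, 11 of them higher in mouse 1 and 4 in mouse 2. Dbp, a clock output factor, measured 49.0 and 3.59 FPKM in Sox4f/f and 70.6 and 3.06 FPKM in Sox4-MKO, and Arntl, which encodes the clock activator BMAL1, measured 2.35 and 12.8 FPKM in Sox4f/f and 1.07 and 11.5 FPKM in Sox4-MKO, both chosen here after their values were seen. Thus the libraries numbered 1 and those numbered 2 stood apart in the clock genes in both genotypes, whatever the cause, which was not tested.

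Heat shock genes were higher in mouse 2 in both genotypes for 11 of 12 genes, among them Hspa1b, an inducible HSP70 gene whose reads can be split with its near-identical copy Hspa1a, at 34.1 and 115 FPKM in Sox4f/f and 11.8 and 46.9 FPKM in Sox4-MKO. Of 39 other immediate early genes tested, 31 (79.5%) went the same way in both genotypes, such as Nr4a1, a cyclic AMP-responsive nuclear receptor chosen here after its values were seen, at 10.3 and 35.7 FPKM in Sox4f/f and 18.7 and 33.8 FPKM in Sox4-MKO. In the AP-1 group it was 4 of the 9 genes above the limit (44.4%), with Fosl2 and Atf3 higher in mouse 2 and Junb and Ier2 higher in mouse 1 in both genotypes. The part of collection time, handling and other differences between the mice in the AP-1 group was not tested.

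**Figure D4:**
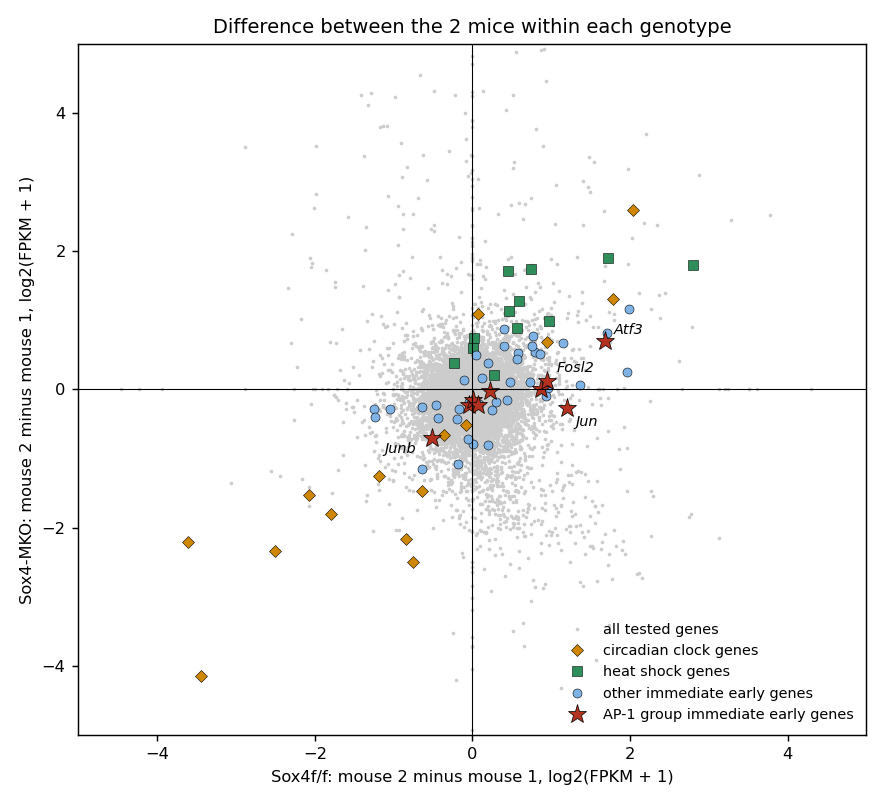
Difference of log2(FPKM + 1) between mouse 2 and mouse 1 within Sox4f/f (horizontal) and within Sox4-MKO (vertical), for 12851 tested genes in grey (26 lie beyond the axes) and for 4 lists in colour. All 15 clock genes lie in the lower left or upper right quadrant, and 4 of the 9 AP-1 group genes (stars) do.

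The genes around the group were counted in 7 lists, with 146 of 158 genes tested. Limma gave an unadjusted p under 0.05 for 19 of them (13%), 10 lower and 9 higher in Sox4-MKO, beside the 16.2% over all genes, and for 11 without Sox4f/f mouse 2. The background is 2090 of the 12877 tested genes (8.28% lower, 7.95% higher), so 51% of these calls were lower, or 36% after rescaling without mitochondrially encoded genes and Ucp1, and it was 6.31% without Sox4f/f mouse 1 and 8.26% without Sox4f/f mouse 2. After Benjamini-Hochberg adjustment limma called 0 genes in the whole table, and the smallest adjusted p was 0.191. The values of the list genes are given by role, and called means an unadjusted limma p under 0.05, with the Benjamini-Hochberg adjusted p over all 12877 genes beside it.

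Among 18 other AP-1 and related leucine zipper factors tested, 13 had a negative log2 difference and 5 a positive one, with a median of -0.04, and 3 were called lower and 2 higher. Atf4, the main factor of the integrated stress response, measured 98.4 and 104 FPKM in Sox4f/f and 69.2 and 69.8 FPKM in Sox4-MKO (log2 difference -0.54, SE 0.11, limma adjusted p = 0.207). Mafk, a small MAF protein, had a log2 difference of -0.64 (SE 0.17, limma adjusted p = 0.227), and Atf2, a cyclic AMP response element binding partner of JUN, one of -0.55 (SE 0.18, limma adjusted p = 0.264). Maf was higher, at 5.45 and 5.58 FPKM in Sox4f/f and 19.7 and 9.11 FPKM in Sox4-MKO (log2 difference 1.15, SE 0.37, limma adjusted p = 0.258). Maf is known from macrophages and muscle among other cells, and the macrophage and muscle marker sums given above were also higher in Sox4-MKO. Atf7, a relative of Atf2, had a log2 difference of 0.38 (SE 0.14, limma adjusted p = 0.304).

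Of 39 other immediate early genes tested, 28 had a negative log2 difference and 11 a positive one, with a median of -0.23, and 3 were called lower and 2 higher. Egr3 (mean 1.34 FPKM in Sox4f/f and 0.567 FPKM in Sox4-MKO) passed the limit of 1 FPKM only through Sox4f/f, where it was high. Its negative difference is part of this count and median and is not evidence apart from that limit. Cebpd, a C/EBP factor induced early in adipocyte differentiation and by inflammation, measured 2.68 and 2.99 FPKM in Sox4f/f and 7.72 and 8.78 FPKM in Sox4-MKO (log2 difference 1.27, SE 0.17, limma adjusted p = 0.191). Its relative Cebpb, which is induced by cyclic AMP, was lower, at 83.2 and 123 FPKM in Sox4f/f and 46.0 and 62.7 FPKM in Sox4-MKO (log2 difference -0.90, SE 0.26, limma adjusted p = 0.241). Gadd45a, a growth arrest and DNA damage response gene, was higher, at 2.31 and 2.92 FPKM in Sox4f/f and 7.05 and 5.53 FPKM in Sox4-MKO (log2 difference 1.01, SE 0.21, limma adjusted p = 0.207). The called genes of this list thus lay in both directions. Nr4a3, a nuclear receptor of the Nr4a1 family, measured 14.7 and 5.59 FPKM in Sox4f/f and 3.41 and 2.62 FPKM in Sox4-MKO (log2 difference -1.35, SE 0.45, limma adjusted p = 0.269). Ppp1r15a, which encodes the phosphatase subunit GADD34 that ends the stress-induced block of translation, had a log2 difference of -0.63 (SE 0.21, limma adjusted p = 0.275).

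The feedback inhibitors of MAP kinase signalling, 14 tested, are themselves induced by that signalling. The called gene was Dusp14, a dual specificity phosphatase, at 0.232 and 0.241 FPKM in Sox4f/f and 1.498 and 0.964 FPKM in Sox4-MKO (log2 difference 0.84, SE 0.27, limma adjusted p = 0.260). It passed the limit of 1 FPKM only through Sox4-MKO, where it was high, so its call is not evidence apart from that limit. The median of the list was -0.28. Spred2 (-0.32), Dusp10 (-0.63) and Spry1 (-0.29) had negative and Spred1 (0.28) a positive log2 difference, and none of the 4 passed.

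Of the 30 kinases and nuclear factors upstream of the group, all were tested and 3 were called, all lower, with a median of -0.18. Crtc2, the coactivator that cyclic AMP sends to CREB, measured 21.0 and 20.7 FPKM in Sox4f/f and 14.1 and 14.7 FPKM in Sox4-MKO (log2 difference -0.51, SE 0.12, limma adjusted p = 0.216). The protein kinase A regulatory subunit gene Prkar2b measured 458 and 451 FPKM in Sox4f/f and 299.0 and 359 FPKM in Sox4-MKO (log2 difference -0.47, SE 0.14, limma adjusted p = 0.243). The catalytic subunit gene Prkaca measured 147 and 152 FPKM in Sox4f/f and 125 and 112 FPKM in Sox4-MKO (log2 difference -0.33, SE 0.12, limma adjusted p = 0.285). Mapk7, which encodes ERK5, had a log2 difference of -0.60 and Crtc3, a relative of Crtc2, one of -0.39, neither called here.

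Genes commonly listed as AP-1 targets had a positive median of 0.33 over 18 tested. Of these, 11 had a positive log2 difference and 7 a negative one, and 4 were called higher and 1 lower. Timp1 (mean 0.664 FPKM in Sox4f/f and 1.27 FPKM in Sox4-MKO) and Spp1 (0.339 and 1.01 FPKM) passed the limit of 1 FPKM only through Sox4-MKO, where they were high. Their positive differences are part of this count and median and are not evidence apart from that limit. The 4 genes called higher encode proteases of the extracellular matrix. Mmp3, stromelysin 1, measured 3.12 and 3.45 FPKM in Sox4f/f and 12.0 and 13.7 FPKM in Sox4-MKO (log2 difference 1.69, SE 0.16, limma adjusted p = 0.191), and Mmp2, gelatinase A, measured 14.03 and 15.5 FPKM against 26.10 and 26.1 FPKM (log2 difference 0.78, SE 0.13, limma adjusted p = 0.196). Mmp9, gelatinase B, had a log2 difference of 0.67 (SE 0.18, limma adjusted p = 0.233) and Plau, the urokinase gene, one of 0.60 (SE 0.20, limma adjusted p = 0.273). Fibroblasts and macrophages are known to express these proteases, and the 2 marker sums were higher in both Sox4-MKO libraries than in both Sox4f/f libraries, as given above, and their part in these levels was not tested. Vegfa, the angiogenic growth factor, was lower, at 369 and 290.3 FPKM in Sox4f/f and 249 and 218 FPKM in Sox4-MKO (log2 difference -0.49, SE 0.17, limma adjusted p = 0.273).

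No heat shock gene of 12 and no clock gene of 15 was called between the genotypes. All 12 heat shock genes had a negative log2 difference, with a median of -0.40, and Hspa1b (-1.36), Hspb1 (-0.55), Hspe1 (-0.50), Hspd1 (-0.33) and Bag3 (-0.32) had the smallest p of the list. With the mouse number as a block, limma called 28 of the 146 tested genes of the 7 lists, 21 lower and 7 higher. Over all tested genes it called 14.8%, and 49.2% of those calls were lower. The called list genes then included Hspa1b, Hspb1 and Mapk7 at an unchanged log2 difference, while Atf2, Atf7, Dusp14 and Prkaca were no longer called. The clock genes had a median log2 difference of -0.19, and Per2 (-0.38), Bhlhe40 (1.07), Cry2 (0.25), Cry1 (-0.26) and Bhlhe41 (0.33), the 5 with the smallest p, did not pass. Npas2 (mean 1.26 FPKM in Sox4f/f and 0.811 FPKM in Sox4-MKO) passed the limit of 1 FPKM only through Sox4f/f, where it was high. Its negative difference is part of that median and is not evidence apart from the limit.

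Of the 19 called list genes, Atf4, Gadd45a, Cebpd, Mmp2 and Mmp3 kept the call whichever library was left out, and the other 14 lost it without at least 1 library. Without Sox4f/f mouse 1 the call was lost for Maf, Atf2, Atf7, Nr4a3, Dusp14, Crtc2, Prkar2b, Prkaca, Mmp9, Vegfa and Plau. Without Sox4f/f mouse 2 it was lost for Mafk, Maf, Atf7, Cebpb, Ppp1r15a, Dusp14, Crtc2, Prkar2b, Prkaca, Mmp9 and Plau. Leaving out Sox4-MKO mouse 1 ended it for Atf2, Atf7, Cebpb, Nr4a3, Ppp1r15a, Mmp9, Vegfa and Plau, and leaving out Sox4-MKO mouse 2 ended it for Mafk, Nr4a3, Ppp1r15a, Prkaca and Vegfa. Rescaling without mitochondrially encoded genes and Ucp1 ended the call of Atf2, Ppp1r15a, Prkar2b and Prkaca, quantile normalization that of Dusp14 and Prkar2b, and the correction for GC content and transcript length that of Atf7, Cebpb and Vegfa. Mapk7 was called under each of the 3 rescalings and Crtc3 after quantile normalization.

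**Figure D5:**
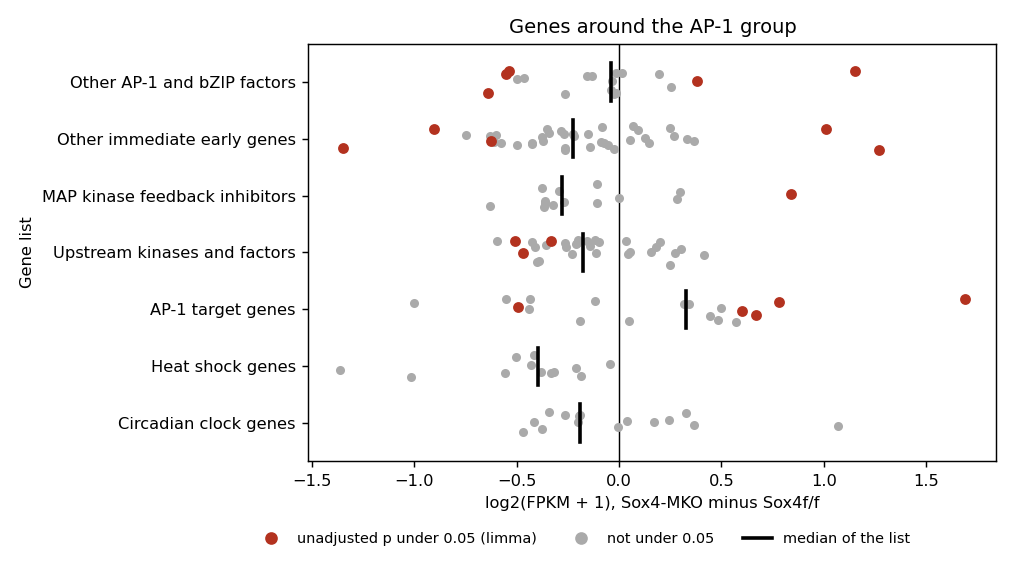
Difference of log2(FPKM + 1), Sox4-MKO minus Sox4f/f, for the 146 tested genes of 7 lists, 1 point per gene, with red for an unadjusted limma p under 0.05 and a black bar for the median of each list. The list of AP-1 target genes has the highest median (0.33) and the heat shock list the lowest (-0.40), and 19 points are red. The AP-1 target list includes Timp1 and Spp1, which passed the FPKM limit only through Sox4-MKO. Egr3 (other immediate early genes) and Npas2 (clock genes) passed it only through Sox4f/f, and Dusp14 (feedback inhibitors) only through Sox4-MKO.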

How the data were processed

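The authors deposited 1 table of FPKM per library, which carries gene symbols and no counts. Per the labels, total RNA was isolated with a column kit and a stranded mRNA kit was used for the libraries, whereas the methods describe TRIzol and a TruSeq kit. The submitters' processing notes name mm10 (GRCm38), Cufflinks 2.1.1 and Cuffdiff. The aligner and the annotation are not given in the sources used here.

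Values were used as deposited, and 66 symbols on more than 1 row were kept as separate rows. The deposited FPKM were put on a log2(FPKM + 1) scale, and limma 3.58.1 (R 4.3.3, trended eBayes) was run with genotype as the only term on genes whose mean FPKM passed 1 in either genotype. p-values are two-sided and adjusted by the Benjamini-Hochberg method over 12877 genes. They weigh each difference against the spread between these mice, with the variance of each gene drawn toward a trend over all tested genes. The code was tested on simulated data. Members and lists were chosen with earlier results of these data known. Genes named are the 10 members, Sox4, in each list up to 5 tested genes with the smallest p, and those stated as chosen after their values were seen. Single cell type markers, and Timp1, Spp1, Egr3 and Npas2 because of the limit on FPKM, are named beside these. Ccn1, Ccn2, Mrtfa and Mrtfb were used for the older symbols in the lists. The whole marker lists were summed in FPKM. Of the lymphocyte markers Ms4a1 was listed at 0 in at least 1 library, and the 10 lymphocyte markers summed to 7.69 to 15.9 FPKM and the 10 endothelial markers to 186 to 342 FPKM. A further marker list is not reported here.

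Depth was estimated from the lowest values of genes with 1 annotated transcript of at least 1500 nucleotides (GENCODE M21), which cluster at the value of 1 fragment. It is approximate, and intervals from it cover counting error only. Alternatives tried were the mouse number as a block, fits without each library, 3 rescalings, 2 pseudocounts, 3 limits on FPKM and, chosen after seeing the data, removal of GC and length trends by loess (span 0.5). matplotlib 3.10.9 drew the figures. The ChIP sequencing of the study was not analysed here.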

Additional observations from a re-analysis of the deposited data

How the results depend on the processing

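With 2 mice per genotype, single libraries set many values, and at 10 to 74 estimated fragments per library Fosb, Fos and Egr2 are limited by depth. Leaving out each library in turn gave 380 to 1015 genes lower (1066 with all 4) and 433 to 1443 higher (1024 with all 4) at an unadjusted limma p under 0.05, and 0 to 4 genes at an adjusted p under 0.05, with 1 without Sox4f/f mouse 1 and 4 without Sox4f/f mouse 2. The median log2 difference of the AP-1 group ranged from -0.83, without Sox4f/f mouse 1, to -0.30, and the called genes of the 7 lists from 11 to 28. The log2 ratio of the summed FPKM ranged from -0.45 to 0.42 for FOS, from -1.12 to -0.27 for JUN and from -0.53 to -0.38 for EGR, and the EGR ratio was -0.61 after quantile normalization.

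Over the same fits the log2 difference changed sign for Fosl2 (-0.35, without Sox4f/f mouse 1, to 0.60), Jun (-0.91 to 0.29, without Sox4f/f mouse 2), Atf3 (-1.62 to 0.057, without Sox4f/f mouse 2), Cry1 (-0.74 to 0.21, without Sox4f/f mouse 2) and, where Sox4-MKO mouse 1 was left out, Bhlhe40 (-0.013 to 2.16), Cry2 (-0.087 to 0.58) and Bhlhe41 (-0.41 to 1.07). Cry1 was also positive, at 0.078, in that last fit. Fits without 1 library assume that the lone mouse of its genotype varies like the others. Under other settings, 10 values of the AP-1 group moved beyond the spread between mice, among them Fosb at -2.64 with a pseudocount of 0.01. Values that changed sign were counted apart, so that these 10 kept theirs follows from the sorting.

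Rescaling to a common sum without mitochondrially encoded genes and Ucp1 gave 745 genes lower and 1322 higher, or 36% of calls lower against 51% with the deposited scaling. Its median over all genes was 0.01. The members were lower for 7 of 9 genes under each of the 3 rescalings. With no limit on FPKM, rows above 0 in at least 1 library were tested.

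The mouse numbers were not shown to pair the samples. Deviations of same-numbered libraries from the genotype means correlated at -0.01 across genes, which are not independent. This value cannot decide whether the numbers pair the samples, because it mixes lists that behaved differently. From mouse 1 to mouse 2, 15 of 15 clock genes but 0 of 14 skeletal muscle markers went the same way in both genotypes. With the replicate block limma called 938 genes lower and 970 higher, or 14.8% of all tested genes. Of the 146 tested genes of the 7 lists it called 28, and 0 genes passed after adjustment.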
